A study of Mus musculus with 24 samples.

Results

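DA1-3B cells given the N-terminal fragment of p65 (p1-361) were compared with the same cells given full-length p65 (WT), over 8 of the 24 arrays of the study. The members were taken from the transfection label alone: 4 arrays of p65/RelA-p1-361 and 4 of p65/RelA-WT. DA1-3B is a mouse leukaemia line of strain C3H eOuJ that carries the Bcr-ABL oncogene, and all groups share that background. The culture medium was DMEM with 10% FCS, the same for all groups. The other groups of 4 arrays received the empty plasmid (VOID), the non-cleavable mutant D361E, the C-terminal fragment p363-549, or both fragments together. VOID is given here as the background level. The labels state neither the promoter of the plasmids, nor the time after transfection, nor if replicate samples were grown as separate cultures. The p-values therefore measure the spread between these samples, and the number of arrays limits the precision.

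p65, encoded by Rela, is the main activating subunit of the transcription factor NF-kB. Its N-terminal Rel homology domain binds DNA, pairs with other subunits and is held by the IkB inhibitors, while the activation domains lie in its C-terminal part. By its name the fragment p1-361 ends at residue 361, so it holds the Rel homology domain without the C-terminal activation domains. The comparison asks which genes differ when cells receive the DNA-binding fragment in place of the whole protein. NF-kB induces the genes of its own inhibitors, among them Nfkbia and Tnfaip3, and those of many cytokines.

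RNA was hybridised with the dye Cy3 to Agilent arrays of 44397 spots. All levels below are log2 processed signal minus the 75th percentile of the same array, so a level of 0 equals that percentile and a difference of 1 is a doubling. The 75th percentile lay between 642.7 and 1023 on the 8 arrays, and the difference of its group means, p1-361 minus WT, was -73.4 (exact permutation test, 2-sided, p = 0.543; the smallest p that 4 against 4 arrays allow is 0.0286). A share of 49.4% to 52.2% of spots was well above background. The arrays are named by the sample numbers of the titles: 2, 8, 14 and 20 for WT, and 4, 10, 16 and 22 for p1-361, and values below follow that order. Of 18 haematopoietic and progenitor markers on the array 13 were above background on all 8 arrays, Ptprc, Spn and Il3ra among them, while Cd34, Kit, Ly6a and Meis1 were at background on all 8. Of 14 B cell markers 10 were at background on all 8, Cd79a and Ms4a1 among them, as were 10 of 14 fibroblast and epithelial markers, Col1a1 and Epcam among them.

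The p1-361 array numbered 22 stood apart from the other 3 of its group. Each of the 8 arrays was left out in turn, and the genes were taken for which the remaining arrays of the groups lay at least 1 log2 unit apart. With number 22 left out there were 46 such genes, and its own value lay nearer WT for 21 of them (45.7%), and at or past the nearest WT array for 12. The WT array numbered 14 lay nearer p1-361 for 8 of 31 genes (25.8%). For the other 6 arrays the share ran from 0% to 9.38%. For Fcer1g, a signalling chain of Fc receptors chosen after its values were seen, the array labelled p1-361 and numbered 22 read 1.12, where the other 3 ran from 3.49 to 3.72 and the D361E arrays from 1.12 to 1.17. The array numbered 24, labelled as both fragments, read 3.65, inside the 3.49 to 3.72 of the p1-361 arrays other than number 22. Its group mean, which includes it, was -2.05, and the lowest array of that group read -4.38. The array numbered 23, labelled p363-549, read -3.71. Its group mean, which includes it, was -0.43, and the highest array of that group read 0.87. Over all genes tested, with each gene centred on the mean of the group means, number 22 correlated at r = -0.47 with the other p1-361 arrays and 0.10 with both fragments. Number 23 correlated at -0.53 with the other p363-549 arrays and 0.78 with both fragments, and number 24 at 0.18 with its own group. Low values were not particular to these arrays. The p1-361 arrays numbered 4, 10 and 16 correlated at 0.09, 0.16 and 0.04 with their own group, and number 18, of both fragments, at 0.10. Own-group values were also below 0 for numbers 5, 14, 17, 20 and 21, from -0.24 to -0.10. These correlations are across genes, which are not independent replicates. For Fcer1g the arrays numbered 22, 23 and 24 go against their labels. Whether samples were exchanged was not tested, and the labels are kept. Totals of called genes and the differences of called genes are therefore given with all arrays and without number 22. That array was singled out by its values, so the spread without it is lower by choice.

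**Figure D1:**
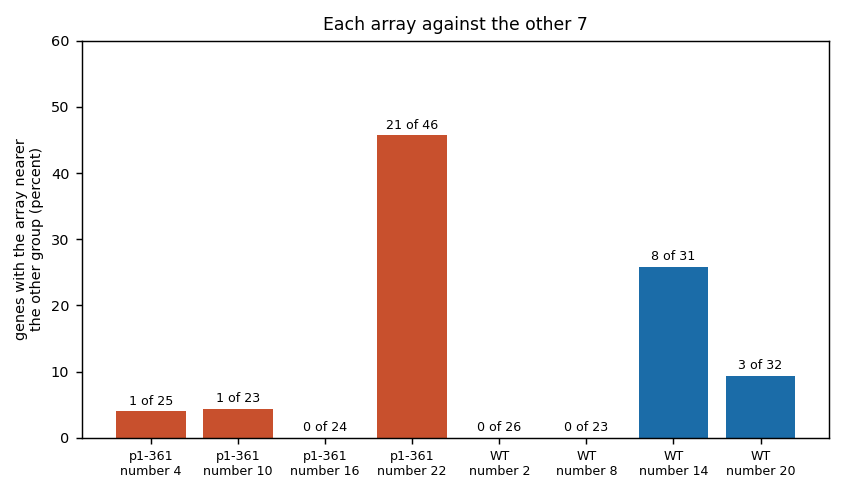
Share of separated genes (percent, vertical axis) for which the left-out array lay nearer the other group, for each of the 8 arrays, with the counts above the bars. Number 22 has the tallest bar with 21 of 46 genes, followed by WT number 14 with 8 of 31.

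Of 14994 genes tested, 19 differed between p1-361 and WT in limma with Benjamini-Hochberg adjustment over all genes (adjusted p under 0.05; 0.127% of genes tested). Of these, 7 were higher (0.0467%) and 12 lower (0.08%) in p1-361. The fall of Tnfaip3 and of the signalling genes Grb7, Map3k19 and Prkd3 stood beside a rise of beta-globin genes and of Csta2, a stefin. For all 19 the p1-361 arrays lay wholly above or wholly below the WT arrays. Over all genes 218 had every p1-361 array above every WT array and 201 had every one below (1.46% and 1.34%, 2.8% together). Without number 22, 3 arrays against 4, these shares were 6.19% and 4.17%, 10.4% together. Without number 22 the test called 27 genes (0.18%), 12 higher (0.08%) and 15 lower (0.1%), and 14 genes were called in both fits. After quantile normalisation in place of the 75th percentile the split was 9 higher and 12 lower with all arrays, and 12 higher and 25 lower without number 22. All 19 kept their direction without number 22, and 5 of them no longer passed: Hbb-bt, Hbb-bh1, Slit1, Itgb7 and 2610528A11Rik. An unadjusted p under 0.05 was found for 453 genes with all arrays and for 874 without number 22. Without the arrays numbered 22, 23 and 24, of which the latter pair belong to other groups and bear on the shared spread alone, 105 genes passed (0.7%), 53 higher (0.353%) and 52 lower (0.347%), and they held all 19 and all 27. The 19 calls fell to 11, 9, 9 and 10 genes without WT number 2, WT number 8, p1-361 number 10 and p1-361 number 16. The 27 fell to 13, 10, 12, 12 and 9 without WT numbers 2 and 8 and p1-361 numbers 4, 10 and 16. A set of 9 genes passed whichever of the 8 arrays was left out: Grb7, Map3k19, Prkd3, Tnfaip3, Itih3, Ffar2 and 9330199F22Rik, lower in p1-361, and Igsf5 and B3gnt5, higher.

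**Figure D2:**
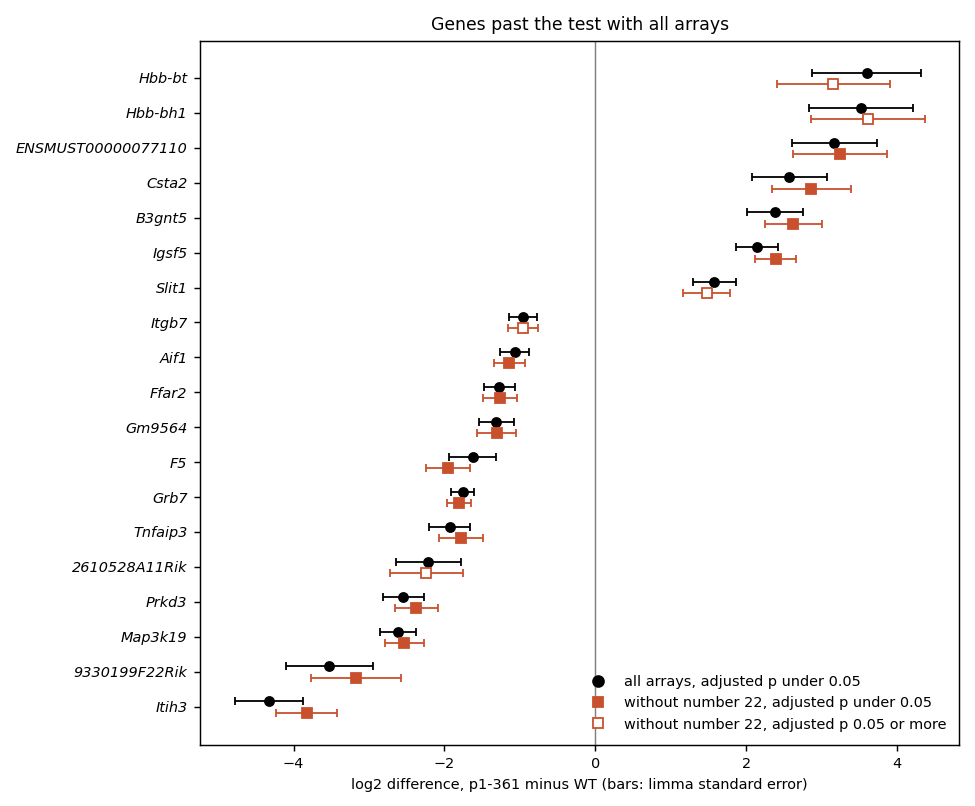
Log2 difference, p1-361 minus WT, of the 19 genes past the test with all arrays (circles) and the same genes without number 22 (squares; open where the adjusted p is 0.05 or more). Bars are limma standard errors; the differences run from -4.33 (Itih3) to 3.60 (Hbb-bt), and the 5 open squares are the genes that no longer passed.

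Among the feedback inhibitors of NF-kB, Tnfaip3, the ubiquitin-editing enzyme A20, was lower in p1-361. Its promoter and those of Nfkbia, Nfkbie and Ltb are shown because they hold a match to the kappaB consensus, the sequence that NF-kB dimers bind. The lines give the 150 bases before the RefSeq start, 5′ to 3′ in the direction of the gene, build GRCm38.p6, with the matches in capitals.
Tnfaip3: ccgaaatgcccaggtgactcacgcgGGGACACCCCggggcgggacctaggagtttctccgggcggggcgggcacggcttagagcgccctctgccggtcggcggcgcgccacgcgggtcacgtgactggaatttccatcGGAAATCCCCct
Nfkbia: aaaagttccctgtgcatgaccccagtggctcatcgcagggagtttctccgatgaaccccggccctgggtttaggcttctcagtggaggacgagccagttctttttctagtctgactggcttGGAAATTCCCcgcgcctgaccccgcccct
Nfkbie: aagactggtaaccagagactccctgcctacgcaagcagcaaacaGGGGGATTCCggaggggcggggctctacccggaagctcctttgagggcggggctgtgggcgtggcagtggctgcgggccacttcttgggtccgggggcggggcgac
Ltb: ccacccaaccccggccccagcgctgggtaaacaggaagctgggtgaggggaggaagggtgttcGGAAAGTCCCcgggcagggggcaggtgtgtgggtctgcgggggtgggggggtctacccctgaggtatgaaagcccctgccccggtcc
These windows lie at chr10:19015411-19015560 (minus strand), chr12:55492648-55492797 (minus strand), chr17:45555550-45555699 (plus strand) and chr17:35194357-35194506 (plus strand). The matches begin 125 and 12 bases before the start in Tnfaip3, 29 in Nfkbia, 106 in Nfkbie and 87 in Ltb. Both strands were searched. A match lay in 4.6% of all 32851 RefSeq promoter windows of 150 bases. In the full 250 bases before any listed start, 14 of the 29 NF-kB targets that were tested and have an entry held one (48.3%), against 10.3% of the 9653 tested genes with an entry. Of the 12 called genes with an entry, Tnfaip3 was the 1 that held a match.

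Tnfaip3 read -0.27, -0.42, -0.34 and -0.09 on the WT arrays and -2.19, -1.98, -2.01 and -2.66 on the p1-361 arrays. WT and p1-361 did not overlap, and number 22 lay inside the range of the VOID arrays, -3.17 to -2.24, with the other 3 just above it. The difference was -1.93 ± 0.27 (log2, limma SE, n = 4 arrays per group; 3.81-fold lower; adjusted p = 0.00118), and -1.78 ± 0.29 without number 22 (adjusted p = 0.00631). It was -1.74, -2.24 and -1.85 within the 3 slides that held both groups. Its probe lies at chr10:18720776-18720835 of mm9, from base 4302 of the transcript.

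Nfkbia, the inhibitor IkB-alpha, which holds NF-kB in the cytoplasm, read 5.09, 4.84, 5.16 and 5.04 in WT and 4.33, 4.01, 3.73 and 2.67 in p1-361. Number 22 was the lowest of the 8, and the groups did not overlap. The difference of -1.35 ± 0.29 did not pass (limma adjusted p = 0.0848), nor did -1.01 ± 0.25 without number 22 (adjusted p = 0.152). VOID arrays lay between 3.08 and 3.73. Nfkbie, the inhibitor IkB-epsilon, read 1.50, 1.50, 1.37 and 1.40 in WT against 1.07, 0.66, 1.02 and 0.61 in p1-361, with VOID from 0.05 to 0.31. Every p1-361 array lay between the VOID and WT arrays, and the difference of -0.61 ± 0.20 did not pass (adjusted p = 0.862; -0.53 ± 0.22 without number 22).

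The subunit gene Relb read 0.41, 0.04, 0.22 and 0.24 in WT and -0.11, -0.34, -0.56 and -0.95 in p1-361, without overlap and with a difference of -0.71 ± 0.35 (limma adjusted p = 1; -0.56 ± 0.38 without number 22). These Relb values are of its probe of highest mean. Its other probes that passed the filter differed by -0.71 and, in the opposite direction, 0.31 (-0.56 and 0.50 without number 22). The precursor subunits overlapped between the groups, with -0.12 ± 0.20 for Nfkb1 and -0.24 ± 0.26 for Nfkb2. No probe of Rel passed the filter on dim signal. Rela itself read 4.75, 4.68, 4.84 and 4.85 in WT and 4.80, 4.73, 4.82 and 4.88 in p1-361, and VOID ran from 4.24 to 4.49. The groups overlapped (0.03 ± 0.10). The single Rela probe, at chr19:5648070-5648129 of mm9, begins at base 2648 of the transcript, and whether it lies in a part that both plasmids hold was not settled, so it checks neither the labels nor the dose of plasmid. Of the 15 measured NF-kB subunits and inhibitors, 0 were higher, 1 was lower (Tnfaip3) and 14 did not pass.

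**Figure D3:**
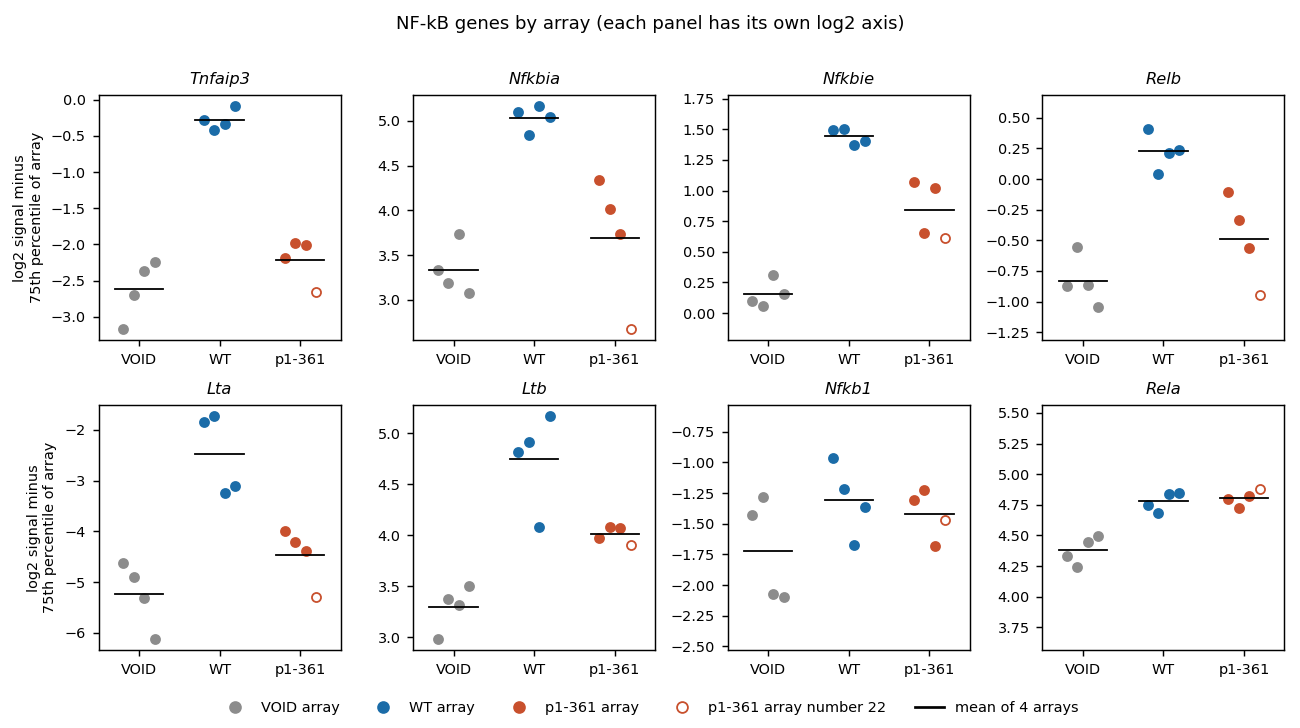
Log2 signal minus the 75th percentile of the array (vertical axes, own scale per panel) for 8 NF-kB genes in VOID, WT and p1-361; points are arrays, lines are means of 4, and the open point is number 22. Tnfaip3, Nfkbia, Nfkbie, Relb and Lta have all p1-361 arrays below all WT arrays, while Ltb, Nfkb1 and Rela overlap. Each gene is drawn from its probe of highest mean.

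Among target genes outside the pathway, the cytokine genes of the tumour necrosis factor family gave mixed values. Lta, which encodes lymphotoxin-alpha, read -1.84, -1.73, -3.24 and -3.10 in WT and -3.99, -4.21, -4.39 and -5.30 in p1-361, with 3 of 4 p1-361 arrays above background. The groups did not overlap and the difference of -1.99 ± 0.47 did not pass (limma adjusted p = 0.147; -1.72 ± 0.49 without number 22). Ltb, its partner lymphotoxin-beta, read 4.82, 4.92, 4.08 and 5.17 in WT and 3.97, 4.09, 4.08 and 3.90 in p1-361, and WT number 14 fell within the p1-361 range (-0.74 ± 0.24, adjusted p = 0.738; -0.70 ± 0.26 without number 22). The chemokine gene Ccl5 read -1.31, -1.14, -1.08 and -1.86 in WT and, in p1-361, -3.03 to -2.92 on numbers 4, 10 and 16 and -2.36 on number 22, all below WT (-1.48 ± 0.35, adjusted p = 0.147; -1.63 ± 0.37 without number 22, adjusted p = 0.0948, which became 0.00629 when sets of consecutive sample numbers, described below, formed a block). The VOID arrays ran from -1.24 to -0.05, above all p1-361 arrays and overlapping WT.

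Of 59 NF-kB targets 39 were measured, and Tnfaip3 was the 1 called, lower in p1-361. The median difference of the 39 was -0.16, beside 0.03 for all genes tested, and 31 of the 39 differences were below 0, as were 6529 of the 14994 genes. All p1-361 arrays lay below all WT arrays for 9 of them and above for 0, where 1.34% of all genes lay below. These 9, listed after their values were seen, were Tnfaip3, Nfkbia, Nfkbie, Relb, Lta, Ccl5, Icam1, Il6 and Irf1. Each gene is counted by its probe of highest mean, and another probe of Relb went the other way. Il6 read 1.99, 2.05, 1.86 and 1.63 in WT against 0.29, 0.80, 0.79 and 0.14 in p1-361 (-1.38 ± 0.35, limma adjusted p = 0.234; -1.25 without number 22), and the adhesion gene Icam1 differed by -0.94 ± 0.31 (adjusted p = 0.797). Within the 3 slides the median of the 39 was -0.17, -0.35 and -0.29, beside 0.07, 0.004 and 0.01 for all genes. Without the arrays numbered 22, 23 and 24, 5 of the 39 were called, all lower: Tnfaip3, Nfkbia, Lta, Ccl5 and Il6.

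The largest gap relative to its error was in a signalling gene. Grb7, an adaptor protein that docks on receptor tyrosine kinases, read 1.55, 1.36, 1.63 and 1.55 in WT and -0.43, -0.46, 0.03 and -0.08 in p1-361. Of the p1-361 arrays, numbers 16 and 22 lay in the range of VOID, -0.25 to 0.23, and numbers 4 and 10 below it. The difference was -1.76 ± 0.15 (3.38-fold lower, limma adjusted p = 1.82e-06), -1.81 ± 0.16 without number 22, and -1.53, -1.44 and -2.05 within the slides. The Grb7 probe lies at chr11:98316616-98316675 of mm9.

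Map3k19, a kinase of the MAP kinase kinase kinase family, read -3.98, -3.74, -3.56 and -3.53 in WT, above background on all 4, and was above background on 0 of 4 arrays of p1-361 and of VOID. It was at least 2.16-fold lower in p1-361 (adjusted p = 2.75e-06 in limma), and at least 2.09-fold without number 22; these bounds set the bright mean against the background level of the dim arrays. The other probe of the gene that passed differed by -3.04. Prkd3, which encodes protein kinase D3, read -4.22, -3.99, -4.56 and -3.46 in WT and was likewise above background on 0 of 4 arrays of p1-361 and VOID. It was at least 1.69-fold lower (adjusted p = 2.45e-05; at least 1.64-fold without number 22, adjusted p = 0.000175). After normexp background correction, which raises dim signals, neither Map3k19 nor Prkd3 passed (adjusted p = 0.983).

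Itih3, a heavy chain of the inter-alpha-trypsin inhibitor, which binds hyaluronan, had the largest difference. It read -0.37, -0.47, -0.34 and -0.03 in WT and -3.80, -4.30, -4.30 and -6.15 in p1-361, with number 22 lowest and 3 of 4 p1-361 arrays above background. VOID lay between, from -2.36 to -1.92. The difference was -4.33 ± 0.45 (20.1-fold, limma adjusted p = 1.9e-05) and -3.83 ± 0.40 without number 22. Of the 4 measured members of the family, listed after their values were seen, Itih3 was called and Itih4, also on chromosome 14, had all p1-361 arrays lower (-1.34 ± 0.53, adjusted p = 1). Itih4 read -0.33, -0.40, -0.33 and -0.17 in WT and -1.87, -1.99, -1.94 and -0.81 in p1-361. Itih1, on the same chromosome, was above background on 0 of 4 p1-361 arrays, and Itih5, on chromosome 2, overlapped (-0.12 ± 0.25).

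Receptor and surface genes moved in both directions. Ffar2, the receptor of short-chain fatty acids, read 0.73, 0.82, 0.85 and 0.50 in WT and -0.47, -0.74, -0.40 and -0.59 in p1-361, a gap wider than the range of either group. The difference was -1.28 ± 0.21 (limma adjusted p = 0.00695; -1.26 ± 0.23 without number 22), and with slide as a fixed block it missed the test (adjusted p = 0.0655). Igsf5, a junctional adhesion molecule, read -2.62, -2.19, -2.74 and -1.81 in WT and 0.02, 0.24, -0.11 and -0.93 in p1-361. It was higher by 2.14 ± 0.28 (4.42-fold, adjusted p = 0.000486) and by 2.39 ± 0.27 without number 22, whose value lay nearest to WT. VOID ran from -2.57 to -1.76, the range of WT.

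B3gnt5, the enzyme that starts lacto-series glycolipids, read -4.84, -4.96, -4.82 and -5.72 in WT, with 2 of 4 above background, and -2.30, -2.67, -2.41 and -3.43 in p1-361. It was higher by 2.38 ± 0.37 (limma adjusted p = 0.00446; 2.63 ± 0.38 without number 22), and it missed the test after normexp correction, with a difference of 0.61. Slit1, a guidance ligand of Robo receptors, was above background on all 4 p1-361 arrays and on 0 of 4 of WT, at least 2.63-fold higher (adjusted p = 0.0213; 0.056 without number 22). Its call also ended without any 1 of numbers 2, 8, 10 and 14, and after normexp correction. The lowest difference of Slit1 under the alternatives described below was 0.09. Itgb7, the beta-7 integrin of gut-homing leukocytes, read 2.85, 2.91, 2.50 and 2.73 in WT and 2.00, 1.86, 1.53 and 1.79 in p1-361. VOID, from 2.56 to 2.87, lay with WT, and the difference was -0.96 ± 0.18 (adjusted p = 0.0343; -0.95 ± 0.20 without number 22, adjusted p = 0.056). Its call ended without any 1 of 6 arrays, all but numbers 4 and 14, and with slide as a fixed block.

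Aif1, a calcium-binding protein of macrophages, read 0.43, 0.32, 0.11 and 0.12 in WT and -0.50, -1.25, -0.94 and -0.61 in p1-361 (-1.07 ± 0.19, limma adjusted p = 0.0213; -1.14 ± 0.21 without number 22). Its call ended without any 1 of numbers 2, 8, 10 and 16. F5, which encodes clotting factor V, was above background on 1 of 4 WT arrays and 0 of 4 p1-361 arrays, so no fold is given although the fit passed (-1.63 ± 0.31, adjusted p = 0.0376; -1.95 ± 0.29 without number 22), and its call ended without any 1 of 6 arrays, all but numbers 2 and 22. Both F5 and Aif1 lost their call after normexp correction. The remaining falls were in transcripts of little known role. 9330199F22Rik read -1.59, -1.37, -1.79 and -1.11 in WT and -4.01, -4.23, -5.67 and -6.06 in p1-361, where 2 of 4 arrays were above background (-3.53 ± 0.57, adjusted p = 0.00705; -3.17 ± 0.60 without number 22). Gm9564 read 0.09, 0.04, -0.23 and -0.37 in WT and -1.34, -1.34, -1.59 and -1.46 in p1-361 (-1.32 ± 0.23, adjusted p = 0.0184; -1.31 ± 0.26 without number 22), a call that ended without any 1 of numbers 2, 8, 10 and 16. 2610528A11Rik read -1.34, -0.71, 0.39 and -0.31 in WT and -3.18, -2.91, -2.11 and -2.63 in p1-361 (-2.21 ± 0.43, adjusted p = 0.0396; -2.24 ± 0.48 without number 22, adjusted p = 0.0618), a call that was kept without WT number 2 and ended without any other 1 of the 8 arrays.

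Of the 7 measured globin genes, 2 passed as higher in p1-361 with all arrays, Hbb-bt and Hbb-bh1, and 0 without number 22. The promoters of Hba-a1, Hbb-bt and Hbb-bs, an alpha and a pair of beta globins, are shown because the differences of all 7 were above 0; capitals mark the CCAAT and CACCC elements, textbook elements of globin promoters, on either strand. The lines give the 100 bases before the RefSeq start.
Hba-a1: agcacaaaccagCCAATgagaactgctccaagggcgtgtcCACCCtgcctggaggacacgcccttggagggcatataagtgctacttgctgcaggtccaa
Hbb-bt: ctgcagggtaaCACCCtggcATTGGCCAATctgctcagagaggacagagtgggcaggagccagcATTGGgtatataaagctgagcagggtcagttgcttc
Hbb-bs: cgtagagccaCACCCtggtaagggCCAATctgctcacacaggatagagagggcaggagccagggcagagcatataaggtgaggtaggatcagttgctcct
They lie at chr11:32283572-32283671 (plus strand), chr7:103813924-103814023 (minus strand) and chr7:103827929-103828028 (minus strand) of GRCm38.p6. CCAAT lay in 18.9% and CACCC in 27.2% of all RefSeq windows of 100 bases. The windows of Hba-a1 and Hba-a2 share 100 of 100 bases at a shift of 3, and Hbb-bs and Hbb-bt share 74 of 100. Such near-identical genes may share probe signal, so the single globin values are uncertain even though the longest run shared by any pair of their probes was 8 bases.

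Hbb-bt, an adult beta globin, read -0.92, -0.41, -0.23 and -0.82 in WT and 2.81, 2.53, 2.34 and 4.32 in p1-361, and the VOID arrays ran from 4.04 to 5.32. Number 22 lay in the VOID range, and the other p1-361 arrays between WT and VOID. The difference was 3.60 ± 0.72 (12.1-fold, limma adjusted p = 0.0474; 3.16 ± 0.75 without number 22, adjusted p = 0.115). Hbb-bh1, an embryonic beta globin, read -3.53, -3.36, -2.87 and -3.78 in WT against 0.41, 0.46, -0.18 and -0.15 in p1-361 and 0.63 to 1.21 in VOID. The difference was 3.52 ± 0.69 (adjusted p = 0.038; 3.61 ± 0.76 without number 22, adjusted p = 0.056). Both calls ended without any 1 of the 8 arrays, and both were made again without the arrays numbered 22, 23 and 24 (adjusted p = 1.86e-05 and 4.81e-06).

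Of the 7 measured globins, listed after their values were seen, 6 had every p1-361 array above every WT array, 2 were called with all arrays, 0 without number 22, and 5 without numbers 22, 23 and 24. Over all genes, 1.46% had every p1-361 array above every WT array, and 0.0467%, 0.08% and 0.353% were called higher in these 3 fits. The differences ran from 1.73 to 3.60 with a median of 2.32. Hba-a2, an alpha globin, read 4.21, 4.83, 5.77 and 4.63 in WT and 6.68, 6.68, 6.75 and 6.26 in p1-361 (1.73 ± 0.37, adjusted p = 0.0848 in limma; 1.84 ± 0.41 without number 22, adjusted p = 0.074). With the sets of sample numbers described below as a fixed block, Hba-a2 and Hba-a1 passed (limma adjusted p = 0.0177 and 0.0294; 0.0267 and 0.0427 without number 22), and Hbb-bh1 and Hbb-bt did not (0.0611 and 0.0642; 0.0585 and 0.0875). Hbb-bs was the member that overlapped (2.32 ± 0.89), with WT number 14 at -2.71 inside the p1-361 range. For all 7 globins VOID lay above WT, and the fit of WT against VOID passed for each, by -2.40 (Hba-a2) to -6.20 (Hbb-bs); the comparisons share the WT arrays. In p1-361 against VOID, in which Hbb-y and Hbb-bs passed, the differences ran from -0.67 (Hba-a2) to -3.88 (Hbb-bs).

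Of 29 erythroid and megakaryocyte markers 22 were measured, 2 were higher (the globins above), 0 lower and 20 did not pass; the median was 0.46. Every p1-361 array was above every WT array for 8 of the 22, where 1.46% of all genes were. The members outside the globin genes did not move as a block: the erythroid regulator Klf1 differed by -0.51 ± 0.24, the receptor gene Epor by -0.18 ± 0.13 and the factor Gata1 by -0.26 ± 0.19, none of them called. Hba-x, Alas2, Ahsp and Slc4a1, markers of maturing red cells, were at background on all 8 arrays. The list's summed level, in multiples of the 75th percentile, was 236.0 to 297.4 in WT, 292.1 to 433.9 in p1-361 and 343.9 to 580.9 in VOID. Fewer cells of a type and less RNA per cell cannot be told apart in such bulk samples.

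Of the 8 measured stefins, cysteine protease inhibitors of the cystatin A type that myeloid cells make, Csta2 was the 1 that passed as higher in p1-361. They lie in a cluster on chromosome 16, and their promoters are shown because they share a run of bases near the start: capitals mark ACCTTTAAAACCCTGA, the longest run of bases that the 4 windows share, which was looked for after the promoters were read. The lines give the 60 bases before the RefSeq start.
Stfa1: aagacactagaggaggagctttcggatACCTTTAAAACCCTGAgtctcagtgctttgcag
Stfa2: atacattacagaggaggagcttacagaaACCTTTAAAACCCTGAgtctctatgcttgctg
Stfa2l1: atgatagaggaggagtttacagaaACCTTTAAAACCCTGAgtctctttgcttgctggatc
Cstdc4: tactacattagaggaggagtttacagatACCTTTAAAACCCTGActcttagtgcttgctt
They lie at chr16:36277088-36277147 (plus strand), chr16:36408364-36408423 (minus strand), chr16:36156751-36156810 (plus strand) and chr16:36184152-36184211 (plus strand) of GRCm38.p6. The run begins 33, 32, 36 and 32 bases before the start. On either strand it lay in 5 of 32851 promoter windows of 60 bases (0.0152%), these 4 and Cstdc3. Since it was taken from these windows, its presence in them is no finding. In the full 250 bases it lay in 4 of the 8 measured stefins, and not in Csta2, the stefin that passed the test. Within 100 bases before the start Stfa2 and Stfa2l1 shared 88, and Cstdc5 and Stfa1 shared 94, at shifts of 4 and 21.

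Csta2 read -4.51, -3.92, -3.75 and -3.81 in WT and -1.35, -0.95, -1.11 and -2.29 in p1-361. VOID lay between them, from -3.26 to -2.85, and number 22 was the p1-361 array nearest to it. The difference was 2.57 ± 0.50 (5.95-fold, limma adjusted p = 0.0376; 2.86 ± 0.52 without number 22, adjusted p = 0.0224), and the call ended without any other 1 of the 8 arrays. Csta2 also lost its call after normexp correction. A predicted transcript, ENSMUST00000077110, whose probe lies at chr16:36136075-36137745 of mm9 beside the cluster, was above background on all 4 p1-361 arrays and on 0 of 4 of WT and of VOID. It was at least 2.65-fold higher than WT (adjusted p = 0.02; 0.0299 without number 22), with the call ending without any 1 of numbers 2, 8, 10 and 16. The transcript also lost its call after normexp correction, and its lowest difference under the alternatives described below was 0.16. Its probe shares a run of 26 bases with that of Stfa2l1, so these values are not independent.

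Of the 8 measured stefins, listed after their values were seen, 7 had all p1-361 arrays above all WT arrays, 1 was called with all arrays, 1 without number 22 and 7 without numbers 22, 23 and 24. The shares over all genes are those given for the globins. The differences ran from 0.88 (Csta3) to 3.67 (Stfa2l1), with a median of 2.75. Cstdc4 read -4.29, -3.98, -3.98 and -3.25 in WT and -0.91, -0.49, -0.68 and -1.77 in p1-361 (2.91 ± 0.71, limma adjusted p = 0.188; 3.18 ± 0.77 without number 22). Stfa1, which encodes stefin A1, read -5.87, -5.08, -5.72 and -4.45 in WT, with 2 of 4 above background, and -2.16, -1.86, -2.17 and -1.62 in p1-361 (3.33 ± 0.98, adjusted p = 0.506; 3.22 ± 1.08 without number 22). Here number 22 was the highest array. Stfa2, Stfa2l1 and Stfa3 were above background on 0 of 4 WT arrays and were at least 3.31-fold, 4.57-fold and 4.05-fold higher in p1-361, none of them past the test. Under the processing alternatives described below these differences fell as low as 0.43 (Stfa2), 0.73 (Stfa2l1) and 0.41 (Stfa3). Near-identical sequence makes the values of single stefins uncertain. Neutrophil markers did not move with them: 6 of 18 were measured, 0 were called, and 8, among them S100a8, Ltf and Ly6g, were at background on all 8 arrays, with a summed level of 77.0 to 90.8 in WT and 71.2 to 105.7 in p1-361.

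**Figure D4:**
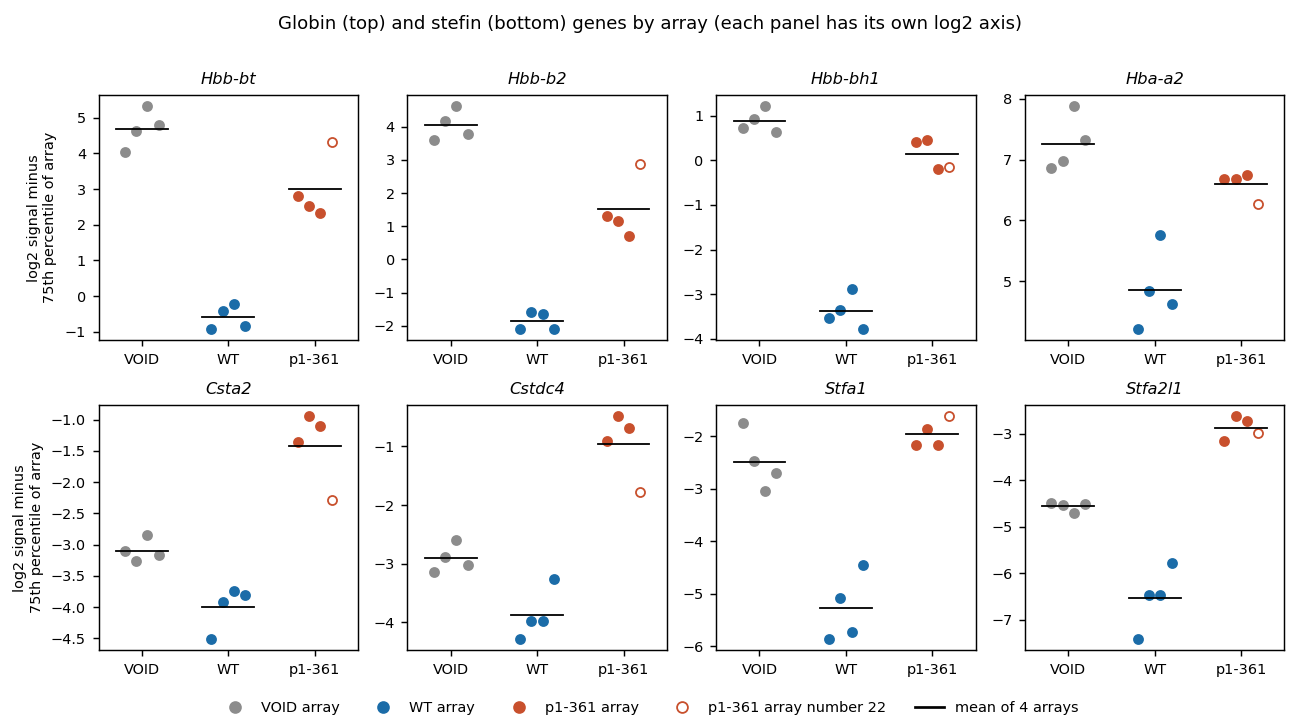
Log2 signal minus the 75th percentile of the array (vertical axes, own scale per panel) for 4 globins (top) and 4 stefins (bottom) in VOID, WT and p1-361; points are arrays, lines are means of 4, and the open point is number 22. In all 8 panels the p1-361 arrays lie above the WT arrays; the VOID means of the globins lie highest, while for Csta2, Cstdc4 and Stfa2l1 VOID lies between.

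Without number 22, 13 further genes passed. The one with the smallest adjusted p was Ifi203-ps, an interferon-inducible pseudogene, which read -4.10, -4.02, -3.84 and -4.26 in WT and -5.80, -7.08, -7.21 and, in number 22, -4.42. It was above background on 0 of the other 3 p1-361 arrays and at least 1.65-fold lower there (limma adjusted p = 0.000206; 0.0539 with all arrays). Flacc1 had a difference of -1.21 ± 0.20 (adjusted p = 0.00851) and Fank1 one of -1.52 ± 0.29 (adjusted p = 0.0299). Number 22 read -2.84 for Flacc1, inside the WT range, and -2.08 for Fank1, above all WT arrays. Wdr31 read 7.17, 6.97, 7.03 and 7.12 in WT and 8.03, 8.04, 8.50 and, in number 22, 7.09.

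Arhgef18, an exchange factor of the GTPase RhoA, read 7.70, 7.64, 7.76 and 7.71 in WT and 8.58, 8.53, 8.71 and 7.85 in p1-361 (0.90 ± 0.18 without number 22, adjusted p = 0.0436 in limma). The other Arhgef18 probe that passed the filter did not show this rise, with -0.05 with all arrays and 0.02 without number 22. St3gal6, a sialyltransferase, was higher by 1.09 ± 0.20 (adjusted p = 0.0206), with number 22 at -3.14 and the WT arrays from -3.13 to -2.54. BC030479 (1.23 ± 0.23), Grin3b, a glutamate receptor subunit (1.17 ± 0.23), Nsmaf, an adaptor of a tumour necrosis factor receptor (0.62 ± 0.12), and the unnamed probe A_55_P2162875 (1.41 ± 0.28) were the other rises among the genes named by rule. In these 4 number 22 was the p1-361 array closest to WT or below it. AV495601 and Deptor passed as well and fall outside the rule for named genes.

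Several genes that an earlier look at these data named against VOID did not pass between the groups, with all arrays or without number 22. Fcer1a, which encodes the alpha chain of the high-affinity IgE receptor, read -3.68, -3.39, -3.23 and -3.97 in WT and -5.67, -6.09, -6.81 and, in number 22, -3.65. It was above background on 0 of the other 3 p1-361 arrays, at least 2.31-fold lower there without passing (limma adjusted p = 0.113). Podnl1 read -0.33, -0.68, -0.77 and -1.23 in WT and 1.07, 0.98, 0.72 and, in number 22, -2.34 (0.86 ± 0.59, adjusted p = 1; 1.68 ± 0.44 without it, adjusted p = 0.209). F13a1, the A subunit of clotting factor XIII, had all p1-361 arrays higher, from -1.46 to -0.86 against -3.05 to -2.43 in WT and 3.27 to 3.87 in VOID, and did not pass (1.46 ± 1.04, and 1.33 ± 1.14 without number 22; its other probe 0.22). Cd200r2, of the CD200 receptor family, was at -0.38 to -0.14 in WT and -1.63 to -0.89 in p1-361, both far below VOID at 1.93 to 2.66 (-0.96 ± 0.25, adjusted p = 0.262; -0.84 ± 0.26 without number 22). In the fit without numbers 22, 23 and 24, Fcer1a, Podnl1 and F13a1 passed (limma adjusted p = 2.86e-05, 0.00182 and 0.00106). Cd200r2 did not pass in that fit (limma adjusted p = 0.0788).

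The lysozyme genes overlapped, with differences of 0.54 ± 0.25 for Lyz1 and 0.34 ± 0.36 for Lyz2. So did the cytokine subunit gene Ebi3 (0.06 ± 0.30), the chemokine gene Ccl3 (-0.04 ± 0.44), the carboxylesterase gene Ces2c (1.11 ± 0.49) and C5ar1, the receptor of complement C5a, which was above background on 0 of 4 arrays of either group and 4 of 4 of VOID. Hif1a, the oxygen-regulated transcription factor, differed by -0.15 ± 0.14, and Abl1 and Bcr, whose human counterparts are joined in the oncogene, by -0.05 ± 0.20 and 0.04 ± 0.19. None of these passed.

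The remaining gene lists held few calls. Over 24 lists 4 distinct members were called: Tnfaip3, Itgb7, Hbb-bt and Hbb-bh1. Chemokines and cytokines had the lowest median among the lists of pathways and functions, -0.50 over 22 measured members, with 0 called with all arrays, 0 without number 22, and 4 lower (Ccl5, Ccl17, Il6 and Lta) without numbers 22, 23 and 24. All p1-361 arrays lay below all WT arrays for 7 of the 22, where 1.34% of all genes did. The list shares members with the NF-kB targets. Ccl5, Il6 and Lta are among these 7 and also among the 9 NF-kB targets named above, so the counts of these lists are not independent. Within slides the median of the chemokine and cytokine list was -0.50, -0.70 and -0.45, beside 0.07, 0.004 and 0.01 for all genes. Leukocyte adhesion and homing had 1 of 25 lower, Itgb7. Interferon-stimulated genes had 0 of 32 called and a median of -0.19, with 27 differences below 0. In the lists of IKK, TRAF and receptor signalling (26 measured), Bcl2 family and caspases (27), STAT5 and ERK response (23), MHC presentation (16), p53 targets (20) and oxidative phosphorylation (30), 0 were called with all arrays and medians lay between -0.13 and 0.13. Glycolysis and hypoxia had 0 of 32 called, and its median changed sign between slides (0.62, -0.90 and -0.37) and from -0.08 to 0.24 without number 22. DNA replication and mitosis (0 of 32, median -0.02), cholesterol and fatty acid synthesis (0 of 27, median -0.11) and the stress responses (0 of 26, median -0.19) gave no calls with all arrays. Without numbers 22, 23 and 24, Cth and Nupr1 of the stress list were called lower.

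With all arrays no marker of other blood cells was called. Mast cell and basophil markers had 0 of 11, with values in both directions: without numbers 22, 23 and 24 Fcer1a and Cpa3, a mast cell protease, were called lower, and Fcer1g and the protease gene Mcpt4 higher. The whole list's summed level was 53.6 to 70.1 in WT and 39.5 to 74.3 in p1-361, with Ms4a2, Kit and Il1rl1 at background. Monocyte and macrophage markers had 0 of 18, with summed levels of 31.2 to 43.0 in WT and 23.4 to 37.7 in p1-361, and Pilra was called lower without numbers 22, 23 and 24. T and NK cell markers had 0 of 10 and a median of 0.36, with summed levels of 14.0 to 37.0 in WT and 28.3 to 77.4 in p1-361, and Thy1, Cd8a and Ncr1 at background. Cd3d and Cd3g, chains of the T cell receptor complex, were called higher without numbers 22, 23 and 24. Eosinophil markers had 0 of 4 and a median of 1.54, with summed levels of 0.997 to 2.91 in WT and 2.36 to 4.27 in p1-361 and Ccr3, Il5ra and Prg3 at background. The summed levels of the T cell and eosinophil lists moved in the same direction as the globins and stefins, and their part in those results was not tested.

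**Figure D5:**
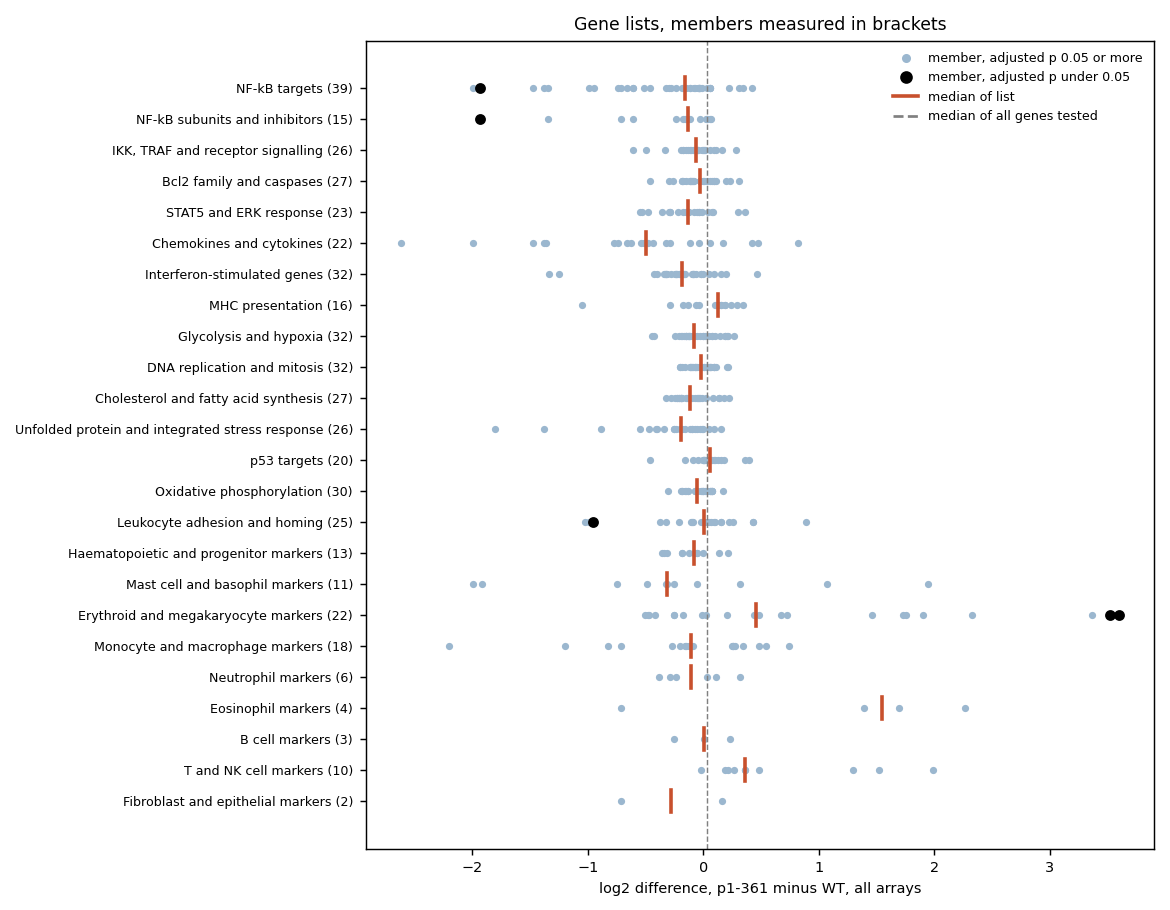
Log2 difference, p1-361 minus WT with all arrays (horizontal axis), of every measured member of 24 lists; black points passed the test, red bars are list medians and the dashed line is the median of all genes tested, 0.03. The black points are Tnfaip3 in both NF-kB lists, Itgb7 and the beta globins; chemokines and cytokines lie lowest among the pathway lists with a median of -0.50.

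The slides and the order of the samples bear on these totals. Slides numbered 3, 5 and 6 each held 1 array of both groups. With slide as a fixed block 16 genes passed with all arrays and 12 without number 22. The sample numbers fall into 4 sets of 6 (1 to 6, 7 to 12, 13 to 18 and 19 to 24), each with every group, which the labels do not call batches. With these sets as a fixed block 21 genes passed with all arrays (0.14%), 7 higher (0.0467%) and 14 lower (0.0934%), with 15 of the 19 among them. Without number 22, 98 passed with the sets as a block (0.654%), 44 higher (0.293%) and 54 lower (0.36%). The 4 calls lost with the sets as a block were Csta2, F5, Hbb-bh1 and Hbb-bt. Without number 22, Itgb7, 2610528A11Rik, Slit1, Stfa3, Ces2c, Ccl5, Hba-a1 and Hba-a2, among the genes named, passed with the block and not without it.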

How the data were processed

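Total RNA of 24 samples was hybridised to Agilent single-colour arrays. Per the file headers, Agilent Feature Extraction 10.7.3.1 made the deposited processed signal, an intensity on a linear scale after background subtraction, together with a flag for spots well above background; probe positions are those of mm9. The values of the deposited series table equalled this linear processed signal, before any log2 or percentile step (largest difference 0). How separate the replicate samples are is not given in the sources used here.

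From the intensities, log2 signal minus each array's 75th percentile was taken over 43020 spots that are no controls, and uneven spots (185 to 312 per array) were left out. No spot was saturated. A probe was kept where every array of 1 or more groups had it well above background (19524 probes), and the probe of highest mean stood for a gene (14994 genes). Names came from the array files, updated by accession through RefSeq for 27508 probes. limma 3.58.1 in R 4.3.3 fitted 1 mean per group over 24 arrays (18 residual degrees of freedom), or over 23 without number 22, with Benjamini-Hochberg adjustment; errors are limma standard errors. The scripts were tested on simulated data. A fold against a group with 0 arrays above background sets the bright mean against the lowest signal well above background on the dim arrays, or the probe's own value if higher.

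Genes were named by rule: those called with all arrays, the 12 largest rises and 12 largest falls called without number 22 with separate arrays, and a list of NF-kB and earlier noted genes. The comparison, the 24 lists (583 genes) and these names were chosen with earlier results of these data known. Alternatives covered normalisation, background correction, filters, slide and sample-number sets as blocks, the arrays fitted, probe summaries, the prior, array weights and each array left out. Promoter windows came from RefSeq tables of GRCm38.p6; no genome or protein table was used here. Some items are not reported here.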

Additional observations from a re-analysis of the deposited data

Results flagged for a closer look

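In 138 groups of 4 arrays examined over the named genes, 13 held an array far from the other 3 by Dixon's test at 95%. Chance does so for about 1 group in 20 where genes are not chosen by their values. Here the named genes include some called only without number 22, and Fcer1g, chosen after its values were seen, so that rate does not apply. In 9 of the 13 the far array was the p1-361 array numbered 22, a count that this choice of genes partly builds in. That array read -0.96 for the probe A_55_P2162875, -5.22 for Ccl3, -2.34 for Podnl1 and -3.14 for St3gal6, below the other 3 of its group. It read 1.12 for Fcer1g, against 3.49 to 3.72 in the other 3 and 0.83 to 1.11 in WT, and 6.26 for Hba-a2. It read -2.36 for Ccl5, -5.70 for F5 and -0.81 for Itih4, above the other 3. In WT the array numbered 20 was far from the others for B3gnt5 (-5.72, lower) and BC030479 (1.20, higher), number 8 for Cd200r2 (-0.14, higher) and number 14 for Fank1 (-2.82, lower).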

How the results depend on the processing

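Of 1555 values of single genes over 23 alternatives, 1359 stayed on their side of the threshold, 89 gained a call and the rest lost it; 0 called values reversed. Values that passed neither way changed sign under at least 1 alternative for Abl1, Bcr, C5ar1, Ccl3, Csta3, Ebi3, Grin3b, Hif1a, Itih5, Lyz2 and Rela. Grb7, Igsf5, Itih3, Tnfaip3 and 9330199F22Rik, 5 of 19, kept their call under every alternative that tested them. The 19 calls with all arrays and the 27 without number 22 became 7 (1 higher) and 6 (2 higher) after normexp correction, and 6 and 17 with the filter on all 24 arrays; 31 and 74 with the compared arrays alone; and 591 and 1423 with array weights. The 19 became 105 without numbers 22, 23 and 24; the 27 became 12 with slide and 98 with the sets as a fixed block. Leaving out each of the 8 arrays gave 9 to 27 and, without number 22, 9 to 24. Of the 19 called genes named, 7 passed after normexp correction, 11 with no filter and 6 with the filter on all 24 arrays, and 9 to 14 with 1 array left out. The 4 list members called became 2 with the percentile over detected probes; 1 after normexp correction, with no filter, with the filter on all 24 arrays or with slide as a random block; 9 with the compared arrays alone; 24 without numbers 22, 23 and 24; 39 with array weights; and 1 to 3 with 1 array left out. The causes were not tested. The filter on all 24 arrays tests fewer genes. Calls of dim genes (Map3k19, Prkd3, Slit1, F5, B3gnt5, ENSMUST00000077110) are limited by signal over background. The labels give the groups no shared replicate numbers, so the sets of sample numbers were fitted as a block in place of pairs; deviations of the WT and p1-361 arrays of a set correlated at 0.25, -0.09, 0.60 and 0.59, so the pairing check was not met.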

Other observations

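Some genes that separate p1-361 from WT were also read in the other groups (means ± SD, n = 4 arrays each). Grb7, the receptor adaptor, was at 1.52 ± 0.12 in WT and at 0.01 ± 0.15 in the non-cleavable mutant D361E, -0.16 ± 0.22 in p363-549 and -0.16 ± 0.22 with both fragments; the WT arrays, from 1.36 upward, lay above all 20 others, whose highest value was 0.23. Map3k19 was at -3.70 ± 0.21 in WT and at -6.67 ± 0.21 in D361E, within the range of VOID. Prkd3 was at -4.06 ± 0.46 in WT and -3.65 ± 0.36 in D361E, and at -6.90 ± 0.24 in p363-549 and -7.13 ± 0.48 with both fragments. These genes were picked after their values were seen, and the differences between the other groups were not tested here.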
